A study of Sus scrofa with 8 samples.

Results

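The whole blood of non-pregnant sows (Sus scrofa) was described from 4 arrays, 1 for each of the 4 sows labelled non-pregnant, out of 8 arrays in the series. The members were chosen by that label alone. The series set 4 pregnant against 4 non-pregnant sows, drawn as 3 pairs that share a parent and 1 unrelated pair, and the other 4 arrays were not used here. Every sow was a female of the fifth parity whose blood was taken from the submandibular vein on day 14 after insemination, so the non-pregnant sows had been inseminated too and are not untreated animals. Breed, age and how the sows were found not to be pregnant are not given in the sources used here. Blood was mixed with a lysis solution soon after it was drawn, so the RNA comes from all blood cells together, and RNA was labelled with Cy3 by a low-input kit for a 1-colour Agilent porcine array.

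Whole blood RNA comes from red cells and their precursors, platelets, and the white cells that carry out innate and adaptive immunity. Neutrophils and monocytes engulf microbes, T and B lymphocytes recognise antigens, and NK cells and cytotoxic T cells kill infected cells. Interferons, released when a virus or another trigger is sensed, switch on a set of antiviral genes in nearly all of these cells.

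Signal is given as log2 of the processed signal relative to the 75th percentile of all probes on the same array, so 0 is that percentile, 1 is 2-fold above it and negative values lie below it. Values listed for a gene follow the order replicate 1, 2, 3 and 4. A gene was taken as measured when its brightest probe stood well above background on all 4 arrays, and 1773 of the 2347 named genes on the array (75.5%) did so, while 340 were above background on none. A gene that fell below background in 1 sow is therefore outside the description. The rank of a gene is the rank of a probe signal: probes bind with different strength, and the order is not one of transcript copies. In blood, fewer cells of a type and less RNA per cell cannot be told apart, and with 1 array for each sow neither can differences between animals and between arrays.

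The 4 arrays were of similar depth. Their 75th percentile signals were 232, 248, 215 and 176 units, 62.6% to 69.3% of probes were well above background, and 0 spots were saturated. Pearson's r between arrays over the 1773 genes, which are not independent replicates, ran from 0.965 to 0.982. The median gene lay at 0.79, 0.79, 0.59 and 0.82, lowest on replicate 3. Replicate 3 was the lowest array for 773 genes (43.6%), and 65.8% of genes were higher on replicate 1 than on replicate 3.

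The gene lists that stood highest in signal were those of protein synthesis, antigen presentation and energy metabolism, and the lists of white cells and platelets stood above the median of all genes, which was 0.74. All 31 cytosolic ribosomal protein genes on the list were on the array and measured, with a median signal of 8.45, and 29 of them were among the 100 brightest genes. The reference genes, used elsewhere to scale expression, had a median of 6.09 over 10 measured genes. The 10 measured MHC class II genes, which present peptides to helper T cells, had a median of 5.70. The 11 measured genes of MHC class I and peptide loading, which show peptides of the cell's own proteins to cytotoxic T cells, had a median of 5.36, and the 23 oxidative phosphorylation genes one of 4.93. The plot of list signals shows that most lists also held members below the median of all genes.

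**Figure D1:**
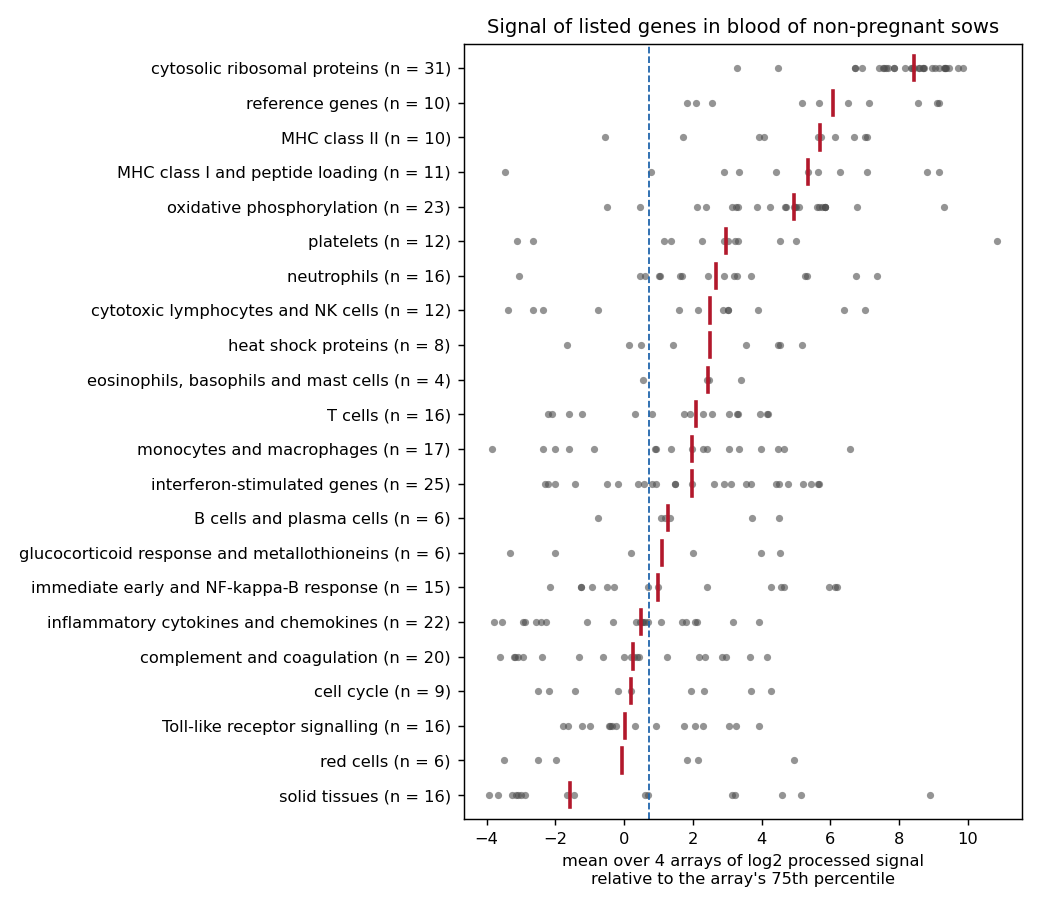
Each grey point is 1 gene, placed at its mean over the 4 arrays of log2 processed signal relative to the array's 75th percentile (x axis), in the list named at the left with its number of measured genes. The red tick is the list's median and the blue dashed line the median of all 1773 named genes (0.74); the ribosomal protein list lies farthest to the right (8.45) and the solid tissue list farthest to the left (-1.56).

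The label whole blood was set against markers, and markers of every listed class of white cell were measured. Since 75.5% of all named genes passed the filter, passing alone does not show that a cell type is present. Of 19 neutrophil genes on the array 16 passed, with a median of 2.68. MMP9, the gelatinase stored in neutrophil granules, had a mean of 7.35 ± 1.18 (SD, n = 4), and CYBA, a subunit of the oxidase that makes superoxide, one of 6.75 ± 0.67. The calcium-binding proteins S100A8, S100A9 and S100A12 lay lower, at 2.45, 1.63 and 2.92, and the cathelicidin PR39 lay at -3.04. PMAP-23, PMAP-36 and TNFAIP6 of the same list were on the array without passing.

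Of 18 monocyte and macrophage genes 17 passed, with a median of 1.97. GRN, the growth factor precursor progranulin, stood highest at 6.58 ± 0.22, and CD14, the coreceptor for bacterial lipopolysaccharide, lay at 3.04 ± 0.64. GRN's place rests on 1 probe, as its other probes lay at 3.07, 0.12 and -1.98. With the mean of its probes it moved from rank 76 of all genes to rank 457. SIGLEC1, a sialic acid receptor of macrophages, did not pass.

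All 16 T cell genes on the array passed, with a median of 2.10. GATA3, a transcription factor of T cells, lay at 4.18 ± 0.44, and the receptor chains CD247, CD3G and CD3E at 4.15, 3.97 and 3.33. The second probes of GATA3 and CD247 lay at 0.28 and 1.87. CD4 lay at -1.23, below the 75th percentile on all 4 arrays. All 12 genes of cytotoxic lymphocytes and NK cells passed as well, with a median of 2.50. They were led by FCGR3A, an antibody receptor, at 7.00 ± 0.60 and by the chemokine CCL5 at 6.39 ± 0.50. NCR1, GZMA and FASLG lay lowest in that list, at -3.37, -2.66 and -2.37. Of 7 genes of B cells and plasma cells 6 passed, with a median of 1.27. XBP1, a transcription factor of antibody-secreting cells that other cells use too, was at 4.50 and CD79A at 1.08. All 4 genes of eosinophils, basophils and mast cells passed, led by the chemokine receptor CCR3 at 3.40.

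All 12 platelet genes passed, with a median of 2.97. ITGA2B, the alpha chain of the platelet fibrinogen receptor, had signals of 4.68, 4.69, 4.28 and 4.49, which lie within 0.40 of each other. PPBP, a chemokine of platelet granules, had 4.02, 2.94, 2.42 and 2.30, with replicate 1 above the other arrays. Red cells were thinly covered. Of 40 listed genes 7 were on the array under their symbol and 6 passed, the adult globin chains not being among the named genes. The embryonic globin HBE1 had 4.66, 5.89, 4.88 and 4.29, highest on replicate 2. Globin genes are close relatives, and 1 probe may read several of them. The transferrin receptor TFRC was above background on none of the 4 arrays.

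Genes that mark solid tissues were mostly dim. Of 26 on the array 10 did not pass, among them those for insulin, glucagon, prolactin and growth hormone, and the 16 that passed had a median of -1.56. ALB, serum albumin made by the liver, lay at -2.99 and the epithelial adhesion gene EPCAM at -3.65. The muscle actins ACTA1 and ACTC1, the apolipoprotein APOA2, muscle creatine kinase CKM and MBP were the 5 of the 16 above the median of all genes. MBP, a protein of the myelin sheath, was the brightest of them, with 8.15, 9.60, 9.71 and 8.17 on its brightest probe, rank 27 of all genes. Its other 7 probes lay between -2.65 and 0.38, and the gene's high signal rests on that 1 probe.

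The 20 brightest named genes held 6 small-subunit or large-subunit ribosomal proteins and the stalk protein RPLP0, together with genes of iron storage, the cytoskeleton, chromatin and mitochondria. TPT1, a protein of growth control, had 11.004 on replicate 1 and between 10.68 and 10.71 on the other arrays. FTH1, the ferritin heavy chain, had a mean of 10.03 ± 0.20, and the ribosomal proteins RPS3, RPS20 and RPS12 had means of 9.86, 9.70 and 9.46. TMSB10, an actin-binding thymosin, lay at 9.62 and H3F3A, a replacement histone, at 9.37. GPX1, which reduces peroxides, and B2M, the light chain of MHC class I, closed the group at 9.28 and 9.17.

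Several of the brightest probes stood far above the other probes of their gene. MUC13, a membrane mucin of epithelia, had the highest signal of all named genes, 11.16, 11.06, 11.34 and 11.43, while its second probe gave -2.88, -2.94, -2.35 and -2.55 and a further probe was above background on no array. The gap between its brightest and next probe was 13.93. CYP24A1, the enzyme that inactivates vitamin D, had a mean of 11.09 and a gap of 9.37. ITGB3, the beta chain of the platelet fibrinogen receptor, had 10.85 and a gap of 7.93. MUT, a mitochondrial mutase, had 10.27 and a gap of 10.76, and ATP5E, a subunit of ATP synthase, 9.29 and a gap of 8.64. Of the 20 brightest genes 19 have another probe on the array, and these 5 (26.3%) had a gap of at least 4. Among all named genes with another probe there it was 122 of 1101 (11.1%). Genes were ranked by their brightest probe, so a high share among the brightest is partly built in.

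A different pattern held for TPT1 and CASP10. TPT1 has 17 probes, all above background, and its 2 brightest probes differed by 0.0048. CASP10, a caspase of death receptor signalling with a mean of 9.66, has 3 probes between 7.82 and 9.82 on every array and 3 between -0.34 and 0.77. When a gene was given the mean of its probes instead of the brightest one, 12 of the 20 stayed among the 20 brightest, and MUC13 moved to rank 478, CASP10 to 119, MUT to 109, ATP5E to 104, CYP24A1 to 55 and ITGB3 to 42. Spearman's rho between both orders over the 1773 genes was 0.956.

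**Figure D2:**
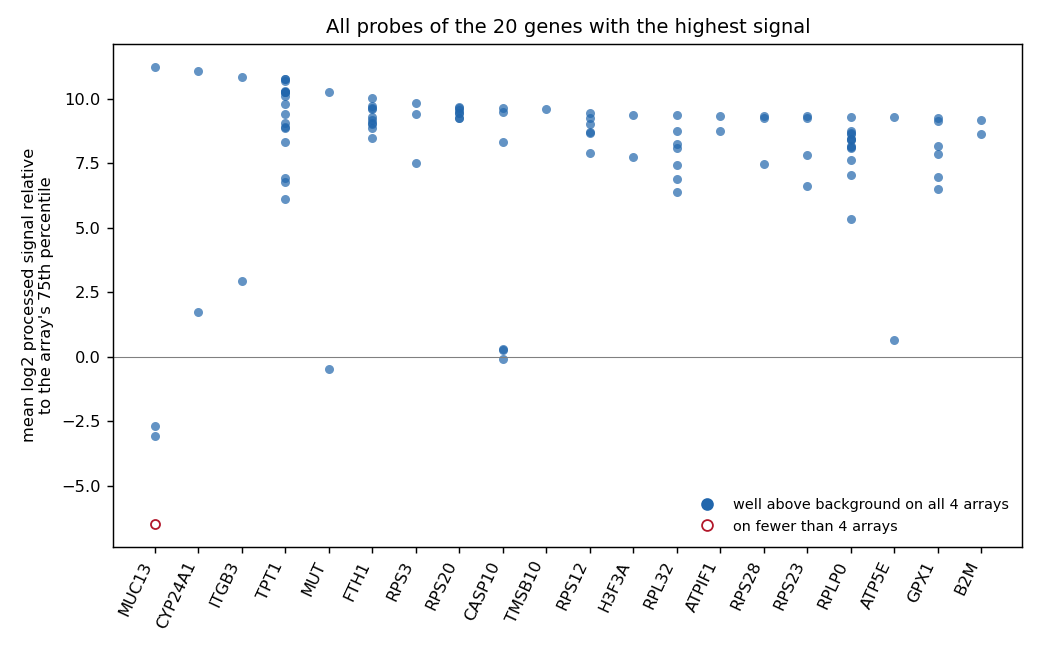
Mean over 4 arrays of the log2 processed signal relative to the array's 75th percentile (y axis) for every probe of the 20 brightest named genes (x axis); the open red circle is a MUC13 probe not above background, and filled blue points are probes that passed on all 4 arrays. MUC13, CYP24A1, ITGB3, MUT and ATP5E have a next probe at least 4 units below the brightest one, whereas the TPT1 probes form a run that starts 0.0048 below it.

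Differences between the 4 sows were small for most genes. The median SD over the 4 arrays was 0.38 and the median span, the highest minus the lowest array, was 0.85, a 1.80-fold difference. A span of at least 4-fold was found for 85 of 1773 genes (4.79%; 5.34% of all probes above background), and 635 (35.8%) reached 2-fold. As a check of the array itself, 30 probes that are spotted several times had a median SD within an array between 0.0960 and 0.136. The share of genes with a 4-fold span was 6.76% among the 444 dimmest genes and 4.06% among the 443 brightest, so wide spans were present at every signal level. The threshold separates near neighbours: CD163 and NR5A1 had spans of 2.0029 and 2.0009, just inside, and GPX2 and SLC15A2 of 1.9978 and 1.9955, just outside. With 4 arrays the median 95% interval of a gene's mean reached 0.61 to either side, or 1.52-fold.

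The least variable genes with a signal above the median included a lymphocyte receptor chain and parts of cytokine signalling. ADSL, an enzyme of purine synthesis, had 1.24, 1.24, 1.23 and 1.25, the smallest SD among them (0.0085). CD247, the zeta chain of the T cell receptor, had 4.10, 4.24, 4.14 and 4.12. The vesicle protein SCAMP1, the transcription factor subunit NFKB1 and the cytokine receptor kinase JAK1 had SDs of 0.069, 0.082 and 0.083. The narrow range was that of the brightest probe: JAK1 spanned 0.20 there and 0.59 to 0.98 on its 4 other probes, and SCAMP1 0.14 there and 0.27 to 0.97 on 3 others above background. The SDs of the brightest probes are below the median SD of repeated spots within 1 array, so their order among themselves carries no information.

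The spread between the sows differed from list to list, with T cell genes at the low end and interferon-stimulated genes at the high end. The median SD was 0.25 for the 16 T cell genes, 0.27 for the 15 immediate early and NF-kappa-B response genes and 0.29 for the reference genes, against 0.38 over all named genes. None of these 3 lists held a gene with a 4-fold span. The share over all genes is 4.79%, and few would be expected in lists this small. The median SD was 0.65 for neutrophil genes, with 3 of 16 past 4-fold, and 0.77 for interferon-stimulated genes, with 11 of 25 (44.0%). The plot of list spreads sets all 22 lists side by side.

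**Figure D3:**
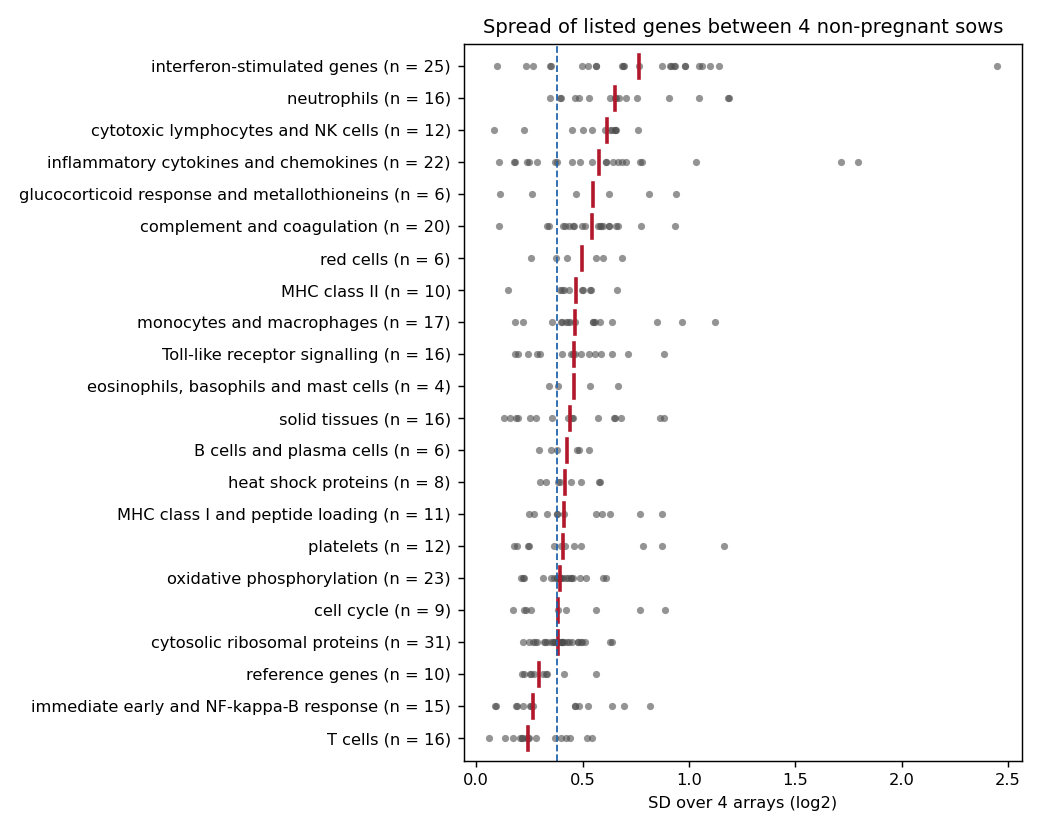
SD over the 4 arrays (log2 scale, x axis) of each measured gene of the 22 lists, with 1 grey point for a gene, the list's median as a red tick and the median of all named genes (0.38) as a blue dashed line. The interferon-stimulated genes have the highest list median (0.77) and the T cell genes the lowest (0.25).

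The interferon-stimulated genes stood highest in replicate 1 and lowest in replicate 2. Of 55 listed genes 26 were on the array and 25 passed, CXCL9 being left out by the filter. Their mean signal was 2.86, 1.30, 1.81 and 2.13, a 2.96-fold span, and relative to the mean of all named genes on the same array it was 1.82, 0.29, 0.97 and 1.08. Replicate 1 was above replicate 2 in 23 of the 25 genes, against 57.6% of all named genes, the others being IRF7 and TRIM26. Replicate 1 was the highest array for 17 of the 25 and replicate 2 the lowest for 19, where the shares over all genes were 33.3% and 18.7%. These counts use the arrays where the list's own mean was highest and lowest, so high shares are partly built in. The span of the list mean on the log2 scale was 1.57, and it was 0.83 without replicate 1 and 1.05 without replicate 2.

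CXCL10, a chemokine that draws activated T cells, had the widest span of these genes, with 5.85, -0.04, 2.35 and 3.52. Its second probe gave 4.97, -0.94, 1.56 and 2.52, in the same order. Replicate 1 lay 5.88 above replicate 2, and the other arrays lay in between on both probes.

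Several antiviral effectors had the same arrays at their ends. ISG15, a ubiquitin-like modifier, had 6.94, 4.89, 5.13 and 5.73, IFIT3, which binds viral RNA complexes, 4.38, 1.80, 2.77 and 3.55, and RSAD2, the antiviral enzyme viperin, 2.22, -0.44, 0.22 and 0.33. The guanylate-binding proteins GBP1 and GBP2, which act on intracellular pathogens, had 6.93, 4.81, 5.26 and 5.55, and 5.20, 2.73, 3.30 and 3.54. Replicate 1 was highest and replicate 2 lowest for each of these 5 genes. MX1, a dynamin-like antiviral GTPase, had 5.79, 4.42, 4.28 and 4.62, again highest on replicate 1, with replicate 3 lowest. OAS2, which makes the activator of an RNA-degrading enzyme, had 5.89, 4.44, 5.51 and 5.92, with replicates 1 and 4 close together at the top.

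IRF1, a factor induced by interferon gamma, had 5.16, 3.24, 4.40 and 5.28, and USP18, a brake on interferon signalling, 2.19, 0.78, 1.78 and 3.14. In both, replicate 4 was highest and replicate 2 lowest on the brightest probe. The second probe of IRF1 had the same ends. That of USP18 gave -3.13, -3.17, -3.63 and -2.98, a span of 0.65, with replicate 3 lowest. IRF7, a factor that drives interferon production, had 4.95, 5.22, 5.57 and 5.09, within 0.62, without the low value of replicate 2. BST2, a membrane protein that holds back budding viruses, lay within 0.20 on all 4 arrays.

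**Figure D4:**
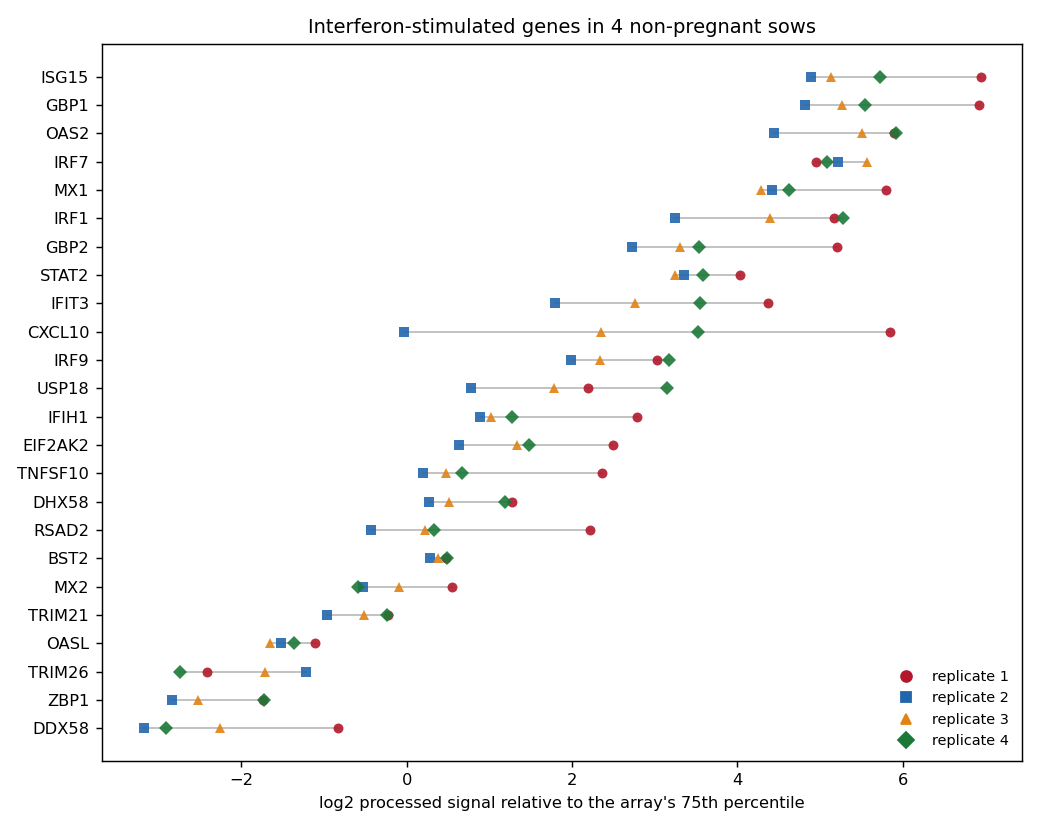
Signals of 24 measured interferon-stimulated genes on each of the 4 arrays (log2 processed signal relative to the array's 75th percentile). Replicate 1 lies above replicate 2 in 22 of these 24 genes, with IRF7 and TRIM26 as the exceptions, and CXCL10 has the widest range (-0.04 to 5.85).

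Genes outside that list included some with the same ends. CD274, the inhibitory ligand PD-L1, had 1.29, -2.91, -0.03 and 0.63, and CCL8, a monocyte-attracting chemokine, 3.64, -0.34, 2.42 and 2.73. EDN1, the vessel-constricting peptide endothelin, had 0.20, -3.71, -2.10 and -1.32. Each of the 3 was highest on replicate 1 and lowest on replicate 2. ISG12(A), an interferon-inducible gene that is not on the list, ran the other way, with 4.69, 7.74, 7.38 and 4.32, so replicate 2 was highest and replicate 4 lowest.

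Other measured lists moved less across the same arrays. The list means were 1.67, 1.40, 1.29 and 1.62 for monocytes and macrophages, 1.59, 1.52, 1.36 and 1.66 for T cells and 2.59, 2.70, 2.48 and 3.13 for neutrophils. Platelet genes, with 3.11, 2.56, 2.46 and 2.50, were highest on replicate 1, as the interferon-stimulated genes were. Their part in the interferon-stimulated signal was not tested. Replicates 1 and 3 lay on 1 slide and replicates 2 and 4 on the other. Within each slide the interferon-stimulated list mean differed too, with replicate 1 above 3 and replicate 4 above 2.

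Neutrophil genes differed between sows in more than 1 direction. MMP9 had 6.38, 6.47, 7.65 and 8.90 and its second probe 4.59, 4.57, 6.06 and 7.32, so replicate 4 was highest on both probes. ARG1, an arginase abundant in liver and, in humans, stored in neutrophil granules, had 5.31, 6.45, 5.63 and 3.63, and its 3 other probes had the same order of arrays, with replicate 2 highest and replicate 4 lowest. CHI3L1, a chitinase-like granule protein, had 4.39, 2.17, 3.85 and 4.37, lowest on replicate 2. S100A8 had 2.13, 2.76, 1.71 and 3.18.

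Among monocyte genes CD163, the scavenger receptor for haemoglobin, had 1.11, 3.11, 2.05 and 1.63. Its 3 other probes were also highest on replicate 2 and lowest on replicate 1. FCGR1A, a high-affinity antibody receptor, had -0.84, -2.86, -3.46 and -2.28, highest on replicate 1. SPP1, the matrix protein osteopontin, had -0.78, -2.68, -1.71 and -2.88, and was also highest on replicate 1.

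Among inflammatory mediators, 22 of 33 cytokines and chemokines on the array passed, with a median of 0.50, and 3 (13.6%) had a 4-fold span, against 4.79% of all named genes. CXCL8, which attracts neutrophils, had 0.30, 3.22, 1.77 and -0.92, and IL1B, a fever-inducing cytokine, 2.22, 3.30, 1.95 and 0.78. Both were highest on replicate 2 and lowest on replicate 4. TNF, by contrast, lay within 0.89 at 2.20, 1.31, 1.92 and 1.73. IL6, IL2, IL17A and CCL2 were among the 11 that did not pass.

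In lists of antigen presentation, protein synthesis and energy metabolism, genes were compared between the arrays with the highest and lowest list mean. Most genes of a list were higher on the first of these. Since the list's own mean picked the arrays, a high share is partly built in. The class I list mean was 4.80, 4.21, 4.23 and 5.06, with 10 of 11 genes higher on replicate 4 than on replicate 2, against 57.0% of all named genes. PSMB8, an interferon-inducible subunit of the immunoproteasome, had 5.49, 3.61, 3.81 and 4.76, and SLA-3, a classical class I heavy chain, 8.92, 8.08, 8.70 and 9.51. The ribosomal list mean was 8.49, 8.09, 7.65 and 8.25, with 30 of 31 genes higher on replicate 1 than on replicate 3, and the oxidative phosphorylation mean 4.80, 4.39, 3.96 and 4.64, with 23 of 23, against 65.8% of all named genes. Taken relative to the mean of all named genes the ribosomal values were 7.45, 7.08, 6.80 and 7.20, so replicate 3 stayed lowest. None of these 3 lists held a gene with a 4-fold span, where the share over all named genes is 4.79% and few would be expected in lists this small. SLA and ribosomal protein genes have close relatives and pseudogenes, and a probe may read more than 1 of them.

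The red cell list had means of -0.08, 0.59, 0.16 and -0.01, with replicate 2 highest and 5 of 6 genes higher on replicate 2 than on replicate 1, against 42.4% of all named genes. KLF1, the transcription factor of erythroid genes, had -2.75, -1.59, -2.09 and -1.44, with replicate 4 and not replicate 2 highest. In the cell cycle list, TOP2A, which untangles DNA before division, had -0.48, -1.26, -1.34 and -2.62, and CDK1 1.01, 0.17, -0.18 and -0.18, both highest on replicate 1. Of the 9 measured genes of that list 6 were highest on replicate 1, against 33.3% of all named genes, and AURKB, a mitotic kinase, was highest on replicate 3. In the red cell and cell cycle lists the arrays counted were picked by the list's own mean, so high shares are partly built in.

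The 25 most variable named genes were led by ACRV1, a protein of the sperm acrosome, with -1.86, -1.06, -1.99 and 11.62. It has 1 probe, whose median intensity was 105, 153 and 97 on the first 3 arrays and 591251 on replicate 4, over a local background of 33 to 36, and the scanner did not mark it as an outlier on any array. The 17 neighbouring probes on replicate 4 lay a median of 0.33 above the other arrays and at most 0.55 above. The high value is that of 1 spot in 1 sow.

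Many of the other 24 shared a pattern in which replicates 2 and 3 were both above replicates 1 and 4. Of the 25 genes 15 did so (60%), as did 36 of the 85 with a 4-fold span (42.4%) and 220 of all 1773 (12.4%). Replicates 2 and 3 lay on different slides. APOA5, a liver apolipoprotein, had 4.39, 6.67, 6.76 and 3.42, and CLPS, the pancreatic lipase cofactor, 2.31, 4.68, 4.79 and 1.58. OPALIN, a membrane protein of oligodendrocytes, had 4.04, 6.15, 6.61 and 3.46, and PTGDS, a prostaglandin D synthase, 3.39, 6.03, 6.02 and 3.46. In all 4 genes the lower of replicates 2 and 3 was above the higher of replicates 1 and 4.

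FAAH, which breaks down endocannabinoids, had -1.13, 1.95, 1.63 and -1.71, and NR1I2, a nuclear receptor for foreign compounds, 0.67, 3.30, 2.78 and -0.25. RHCE, a blood group protein of red cells, had 0.44, 1.82, 1.77 and -0.75, and the related ammonium transporter RHBG -0.03, 2.84, 2.03 and 0.52. The bright MBP probe described above had that order as well, with 9.60 and 9.71 against 8.15 and 8.17, whereas its second probe gave 0.50, 0.25, 0.45 and 0.32.

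Several of these genes are known from liver, pancreas or brain rather than from blood, and their other probes were often silent. Of the 25 most variable genes 11 had another probe on the array, and for 7 of those (63.6%) at least 1 was above background on no array: APOA5, CLDN18, ITIH4, NR1I2, OPALIN, PFKFB1 and RHBG. Among all named genes that was so for 159 of 1101 (14.4%). Second probes above background on all 4 arrays existed for 3 of the 25. CXCL10 kept its order of arrays. CLPS, with 1.00, 3.83, 3.17 and 1.76 on the second probe, and FAAH, with -2.0, -0.15, -1.23 and -1.34, kept replicates 2 and 3 on top, FAAH over a narrower range. Over the 30 genes with a 4-fold span and a second probe, both probes were highest on the same array in 23 (76.7%). They were lowest on the same array in 18 (60%). Among all 917 genes with a second probe the shares were 64.5% and 65.8%. Of the 30 second probes 14 spanned 4-fold themselves. Their median span was 1.94, against 2.355 on the brightest probes, whose span picked these genes.

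**Figure D5:**
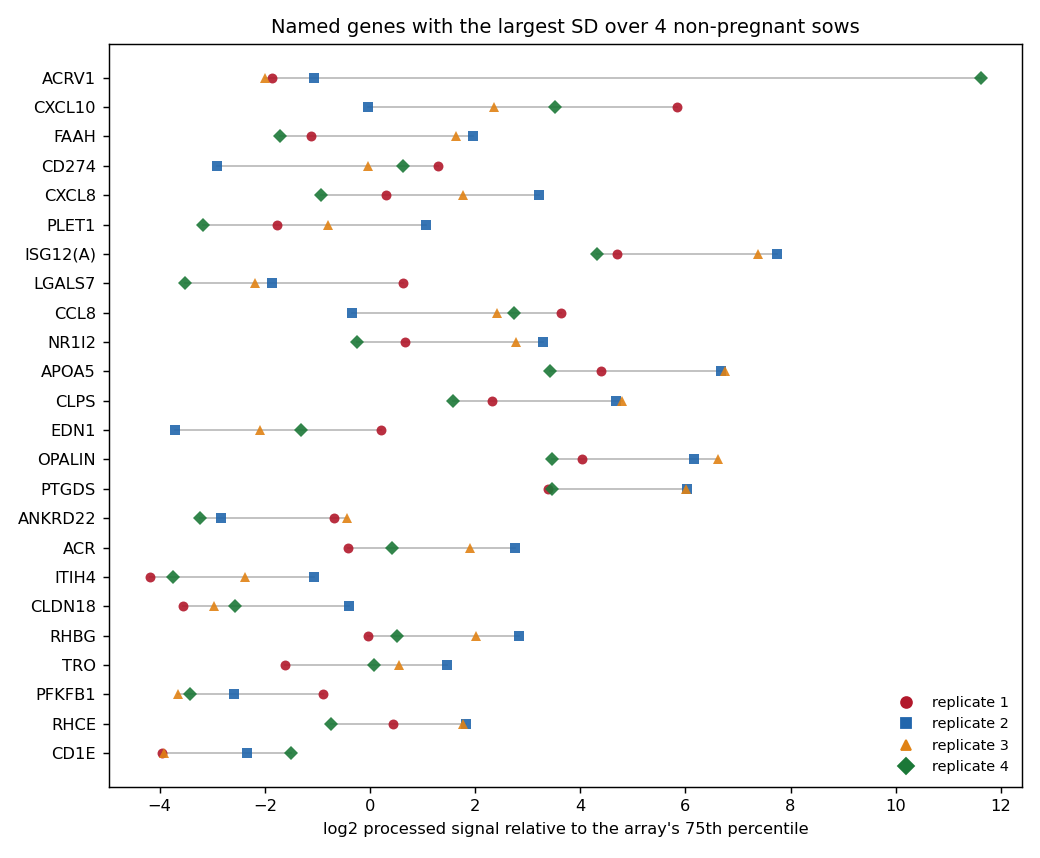
Signals of 24 of the 25 most variable named genes on each of the 4 arrays (log2 processed signal relative to the array's 75th percentile). Replicates 2 and 3 are the higher pair in 14 of these 24 genes, and the value of 11.62 for ACRV1 on replicate 4 stands apart from its other values of -1.99 to -1.06.

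Among the remaining genes of the 25, LGALS7, a galectin of skin and other epithelia, had 0.62, -1.86, -2.19 and -3.53, and PFKFB1, a liver regulator of glycolysis, -0.90, -2.59, -3.65 and -3.42, both highest on replicate 1. CLDN18, a tight junction protein, had -3.56, -0.40, -2.97 and -2.56, highest on replicate 2. ITIH4, an acute-phase protein of the liver, had -4.18, -1.07, -2.39 and -3.74. PLET1 had -1.77, 1.07, -0.81 and -3.17, TRO, the adhesion protein trophinin, -1.62, 1.47, 0.55 and 0.09, and ACR, the sperm protease acrosin, -0.41, 2.76, 1.90 and 0.41. ITIH4, PLET1, TRO and ACR were again higher on both replicates 2 and 3 than on replicates 1 and 4 on their brightest probes. ITIH4's second probe, above background on 3 arrays, gave -3.66, -4.70, -4.18 and -6.32, and PLET1's gave -3.59, -4.78, -2.79 and -3.94. Neither kept replicates 2 and 3 on top. PFKFB1's second probe, also above background on 3 arrays, was highest on replicate 1 again. Counted over the 25, replicate 2 was the highest array for 13 and replicate 4 the lowest for 11, against 21.4% and 16.6% of all named genes.

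The slide was the only batch compared, and few named genes were called between the slides. Array titles also carry a number for the array on its slide, which was not compared. At an unadjusted limma p under 0.05 there were 2129 of 25970 probes and 86 of 1773 named genes, where chance alone gives a share of 0.05. With limma's fit across 25970 probes, two-sided with Benjamini-Hochberg adjustment, 55 probes (0.212%) differed between the slides, 12 higher and 43 lower on slide 2, and 3 of the 1773 named genes (0.169%) were among them. ANKRD22 had -0.69, -2.83, -0.44 and -3.24, lower on slide 2 by a log2 difference of -2.47 (limma adjusted p = 0.0049), and its groups of 2 arrays did not overlap. CD1E, a lipid antigen-binding protein of dendritic cells, had -3.95, -2.34, -3.92 and -1.50 (limma adjusted p = 0.038). ACRV1 was called (limma adjusted p = 0.0090) although its value on replicate 2, -1.06, was close to those of slide 1. Each slide held 2 arrays, so the slide cannot be told apart from the sows on it, and an exact permutation test of 2 against 2 could not go below p = 0.333.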

How the data were processed

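The scanner files that the authors deposited came from Agilent Feature Extraction, version 10.7.3.1 in the headers of the files, or 10.7 in the submitters' processing notes. They hold a linear processed intensity from which, per the file headers, background and a spatial trend were removed, and arrays were not normalized to each other. For a second deposited table, of log2 values, the sources used here give no normalization. Each of its columns correlated with its own array's log2 processed signal (r of 0.99922 or higher across probes), and in all 4 columns the quartiles were 2.19, 5.03 and 7.76. Its direction is that of the signal, its centring is unknown, and it was used as an alternative only.

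Control spots and outlier spots were left out, spots of 1 probe were averaged as log2, and each array's 75th percentile was subtracted. Of 43603 probes, 140 had every spot marked as an outlier on some array, and 25970 of the rest (59.8%) were well above background on all 4 arrays. The files give accessions and not symbols. Of 5760 probes with a RefSeq accession, 5376 matched a symbol in the Sscrofa11.1 gene table, used for names only, and the other probes stayed unnamed. The brightest probe stood for a gene.

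The slides were compared with limma 3.58.1 (lmFit, eBayes) in R 4.3.3 at an adjusted threshold of 0.05, after a check on simulated data. Python 3.11.15 with pandas 2.3.3 made the tables, and matplotlib 3.10.9 drew the plots. Named are the 20 brightest genes, the 25 of largest SD, the 5 of smallest SD among genes brighter than the median, and the 2 brightest and 2 most variable members of each of 22 lists; some of these genes are not reported here. Further list members, the genes at the 4-fold threshold and MBP's other probes were picked after their values were seen. The group, the rule and the lists were chosen with earlier results of these data known. Alternatives were median and quantile scaling, normexp (offset 50), the deposited table, other filters, the mean of a gene's probes, a trended robust variance, and each array left out.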

Additional observations from a re-analysis of the deposited data

Results flagged for a closer look

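In 9 results 1 array stood far from the other 3 by Dixon's test at the 95% level, which chance gives in about 1 of 20 groups; over all named genes it was so for 74 of 1773 (4.17%), and for 7 of the 123 genes and 2 of the 22 list means considered here. Replicate 4 gave 11.62 for the sperm protein ACRV1 (-1.99 to -1.06 on the others). It gave 4.60 for IRF3, a transcription factor of the interferon response (3.62 to 3.78). IRF3's second probe was highest on replicate 4 too, at 0.34, but spanned only 0.14. Replicate 4 also gave 1.42 for NFKB1 (1.57 to 1.60) and 0.73 for SCAMP1 (0.86 to 0.87), both within a narrow range. Replicate 1 gave 11.004 for TPT1 (10.68 to 10.71) and 4.03 for STMN1, a regulator of microtubules (3.54 to 3.59). It also gave a mean of 3.11 for the platelet genes (2.46 to 2.56) and of 1.85 for the immediate early and NF-kappa-B response genes (2.00 to 2.02). Replicate 2 gave -0.82 for HSD11B1, which regenerates active glucocorticoid (-2.62 to -2.31).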

How the results depend on the processing

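No paired analysis was possible because only 1 group is described. The count of measured genes, 1773, lay between 1777 and 1822 with an array left out, and that of genes with a 4-fold span, 85, between 76 and 92 under median scaling, quantile normalization, the deposited table and the mean of probes. It was 11 after normexp, whose offset of 50 narrows differences of dim probes, 187 for genes above background on at least 1 array, and 40 (without replicate 2) to 81 with an array left out (46 without replicate 1). Genes that differed between the slides, 3 in number, were 1 under median scaling (ANKRD22), 0 under quantile normalization (limma; 80 at an unadjusted p under 0.05), and 0 (without replicate 1 or 3) to 5 (without replicate 4) with an array left out. The span of the interferon-stimulated list mean, 1.57, was 1.56 under median scaling, 1.43 under quantile normalization, 0.93 after normexp and 1.46 in the deposited table. Without replicate 1 the span of the platelet list mean fell from 0.65 to 0.10. With 4 arrays a gene's mean is known only within a median 95% interval of 1.52-fold to either side. Differences between single arrays have no such interval, as each sow had 1 array.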

Other observations

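TPT1 has the most probes among the 20 brightest genes, 17 in all, and these differed in how far apart they put the sows. All 17 were highest on replicate 1 and 13 were lowest on replicate 4, with spans from 0.22 to 2.63. The gap between its brightest and dimmest probe was 3.31, 4.70, 4.92 and 5.65 on replicates 1 to 4. Over the 142 genes with at least 5 probes above background the median of that gap was 2.86, 2.78, 2.77 and 3.06, and replicate 4 had the largest gap for 67 of them. This look at the probes of a gene was chosen after the values were seen.

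Toll-like receptor signalling genes were all measured, 16 of 16 on the array, against 75.5% of all named genes, at a median of 0.03. The lipopolysaccharide coreceptor LY96 had 3.66, 2.90, 2.64 and 3.85, and TLR2, a receptor for bacterial lipoproteins, 2.55, 2.15, 2.30 and 2.19. TRAF6, an adaptor of these receptors, had -0.35, -0.16, 1.60 and 0.16, with replicate 3 highest. In the complement and coagulation list 20 of 27 genes on the array passed, at a median of 0.26. C3, the central complement protein, had 2.63, 3.84, 2.85 and 2.55, highest on replicate 2, and CD59, which shields cells from complement, had -2.74, -2.04, -4.24 and -3.37, also highest on replicate 2. Immediate early genes, which rise quickly when blood is handled or stimulated, had an SD above the median of all named genes in 7 of 15 members. JUN had 4.51, 4.46, 4.66 and 4.63 and NFKBIA 5.81, 6.24, 5.91 and 5.92, within a narrow range. FOS had -1.35, 0.61, -0.49 and -0.76.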
